A study of Mus musculus with 15 samples.

Results

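In HPC-7, a line of early haematopoietic mouse cells that was derived from embryonic stem cells, 2445 of 7406 genomic regions that carried both the transcription factor YY1 and the promoter mark H3K4me3 had no peak of the cohesin subunit SMC3 in any of 6 SMC3 libraries (33%). They are called SMC3-free regions here, which means that no peak was called, not that no cohesin was there. They were chosen by their peak calls. Peaks of YY1, and of H3K4me3, that shared at least 1 bp were merged over the 3 libraries of the target, and merged regions with a peak in at least 2 libraries were kept. Of 7814 such YY1 regions, 7406 overlapped such an H3K4me3 region. The other 4961 of these carried a peak in at least 1 SMC3 library, 3677 of them in 1 to 5 libraries and 1284 in all 6. The lack of SMC3 and the presence of YY1 and H3K4me3 are therefore descriptions of the choice and not results.

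The measurements are CUT&Tag, in which an antibody guides a transposase that cuts and tags the DNA beside the antibody's target. About 150000 cells went into each reaction, and each of 5 groups had 3 libraries that the protocol calls biological replicates. Control cells, named wild type in the titles and with a luciferase shRNA in the descriptions, were profiled for YY1, H3K4me3, SMC3 and IgG. The shYY1 cells, named for an shRNA that targets YY1, gave SMC3 libraries. The IgG libraries were not analysed here, and YY1 was profiled in control cells alone among the libraries analysed here, so how far the shRNA lowered YY1 was not measured. The name of the antibody's supplier, Abcam, stands in the description of the first SMC3 library of each arm and in no other. A cell line grown in culture limits what the peaks say of haematopoietic cells in an animal. Of 15 haematopoietic stem and progenitor markers, 14 had H3K4me3 at a gene start (all but Lmo2), as did 2 of 5 erythroid markers, 0 of 8 pluripotency markers and 0 of 10 markers of other tissues.

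The lists held 16763 to 17895 H3K4me3 peaks per library and 8469, 10699 and 3750 YY1 peaks in replicates 1, 2 and 3. SMC3 lists held 4511, 4595 and 2061 peaks in control cells and 2631, 3213 and 3032 in shYY1 cells. The third YY1 library and the third control SMC3 library thus had the fewest peaks of their groups. Leaving out the third control SMC3 library gave 2476 SMC3-free regions, and leaving out the third YY1 library gave 2379. Without the first or second YY1 library the number fell to 599 or 550, since most of these regions were called in exactly those libraries. The total of YY1 and H3K4me3 regions fell too, from 7406 to 3548 or 3478, and the SMC3-free share was lower than 33%. The files give positions without heights or read counts, so the depth is unknown and a peak's length is the one property of its size that can be compared.

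YY1 is a zinc finger protein that binds a short DNA motif around the letters ATGG, and it sits at many promoters, where it can activate or repress transcription and help to bring promoters and enhancers together. Cohesin is a ring-shaped complex with SMC3 as one of its core subunits. It extrudes loops of chromatin, commonly halts at sites bound by CTCF, and is loaded near active promoters. H3K4me3 marks the start of most expressed genes.

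The gene starts that the results turn on are those of SMC3-free regions that hold the YY1 core motif, written here as AANATGGC and searched on both strands. Shown first are 7 of the 10 starts found by the rule for sequences, taken because their core lay nearest to the YY1 summit, at 18 to 107 bp. Each line is 130 bases of RefSeq sequence (GRCm38.p6, the assembly of mm10) read along the gene's strand, with the core in capitals on whichever strand it was found (GCCATNTT when read from the opposite strand). They were Pcif1, which methylates the first base of capped mRNA (chr2:164879268-164879397, plus strand), the co-chaperone gene Dnajc7 (chr11:100619598-100619727, minus strand) and the zinc transporter genes Slc39a9 (chr12:80644115-80644244, plus strand) and Slc39a7 (chr17:34031756-34031885, minus strand). The others were the death-domain adaptor gene Cradd (chr10:95324108-95324237, minus strand), the nucleoporin gene Nup88 (chr11:70969944-70970073, minus strand) and the catalytic proteasome subunit gene Psmb5 (chr14:54617966-54618095, minus strand).
Pcif1: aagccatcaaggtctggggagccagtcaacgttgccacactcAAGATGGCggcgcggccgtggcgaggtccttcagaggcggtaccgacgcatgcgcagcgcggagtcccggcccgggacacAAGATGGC
Dnajc7: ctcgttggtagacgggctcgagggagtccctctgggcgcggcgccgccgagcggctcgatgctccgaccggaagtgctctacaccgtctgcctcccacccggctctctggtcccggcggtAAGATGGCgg
Slc39a9: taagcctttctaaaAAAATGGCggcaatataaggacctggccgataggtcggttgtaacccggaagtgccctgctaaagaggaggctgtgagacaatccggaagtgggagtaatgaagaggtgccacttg
Slc39a7: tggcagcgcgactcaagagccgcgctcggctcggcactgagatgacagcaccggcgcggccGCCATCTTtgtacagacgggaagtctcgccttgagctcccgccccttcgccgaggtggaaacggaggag
Cradd: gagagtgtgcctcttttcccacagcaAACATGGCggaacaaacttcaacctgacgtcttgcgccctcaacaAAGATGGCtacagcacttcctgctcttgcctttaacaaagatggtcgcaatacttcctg
Nup88: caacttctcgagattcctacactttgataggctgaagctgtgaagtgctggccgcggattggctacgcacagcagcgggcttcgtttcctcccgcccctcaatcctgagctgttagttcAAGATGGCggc
Psmb5: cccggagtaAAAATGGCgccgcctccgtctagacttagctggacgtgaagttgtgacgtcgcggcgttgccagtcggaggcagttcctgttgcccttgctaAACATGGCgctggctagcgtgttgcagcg
For comparison, 2 starts with SMC3 in all 6 libraries and the core, picked after their values were seen, were those of Cox20, which helps to assemble cytochrome c oxidase (chr1:178319053-178319182, plus strand), and Daxx, a chaperone of histone H3.3 (chr17:33909345-33909474, plus strand).
Cox20: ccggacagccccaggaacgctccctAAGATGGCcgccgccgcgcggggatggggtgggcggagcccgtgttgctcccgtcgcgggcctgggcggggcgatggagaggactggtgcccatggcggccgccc
Daxx: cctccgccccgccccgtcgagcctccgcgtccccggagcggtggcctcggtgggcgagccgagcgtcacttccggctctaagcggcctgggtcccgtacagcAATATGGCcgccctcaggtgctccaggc
Pcif1, Cradd and Psmb5 each hold 2 copies of the core in the bases shown. In Dnajc7 and Nup88 the core begins 20 and 19 bases after the gene start, within the transcript. In Slc39a7 it reads on the strand opposite to the gene.

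YY1 peaks were shorter in SMC3-free regions than in regions with SMC3 in each of the 3 YY1 libraries. The median length was 252, 346 and 257 bp in SMC3-free regions and 394, 488 and 348 bp in regions with any SMC3 peak, in replicates 1, 2 and 3. Within every library the SMC3-free median was the lower one, although the second library's SMC3-free median was close to the third library's median with SMC3. The means of these medians were 285 ± 52.9 and 410 ± 71.4 bp (SD, n = 3), and the difference was -125 ± 29.4 bp (SD; exact two-sided sign-flip permutation over 3 libraries, p = 0.25, the smallest p that 3 libraries allow). Against regions with SMC3 in all 6 libraries the difference was -227 bp. No comparison over 3 libraries could pass 0.05, and the difference was larger than its spread between the libraries.

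The length grew with the number of SMC3 libraries. In the first YY1 library the median was 252 bp with no SMC3 library, 306 with 1, 332.5 with 2, 366.5 with 3, 398 with 4, 415 with 5 and 511 with 6. The second library rose at every step too, from 346 to 608 bp. The third rose from 257 to 417 bp with 1 step down, from 317 bp with 3 libraries to 307.5 bp with 4. SMC3-free regions thus lie at the low end of a graded series in YY1 peak length and are not set off from regions with SMC3 in 1 library by a gap.

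**Figure D1:**
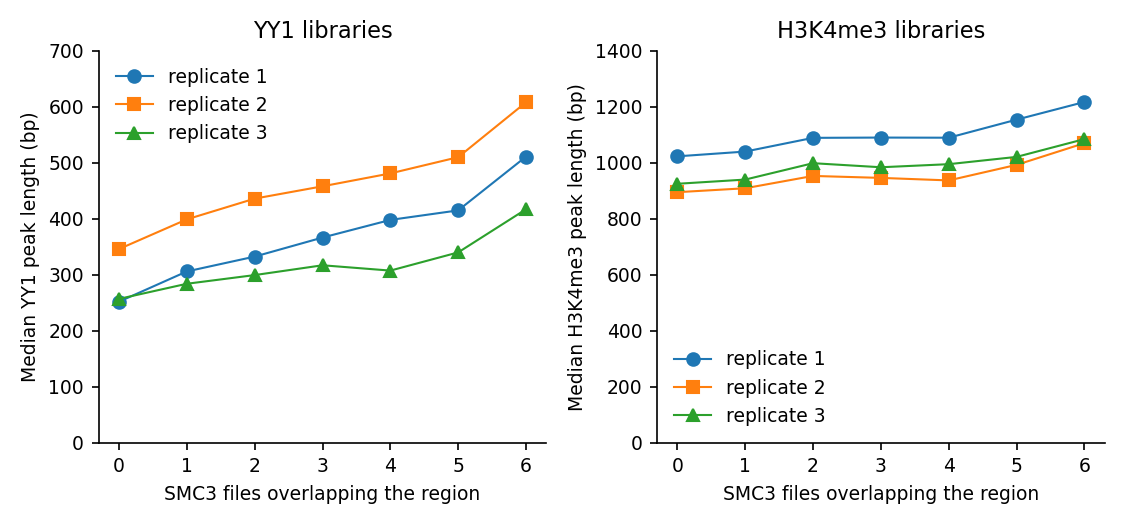
Median peak length (bp) in each of the 3 YY1 libraries (left) and 3 H3K4me3 libraries (right) at YY1 and H3K4me3 regions, by the number of SMC3 libraries (0 to 6) with an overlapping peak; each point is 1 library. YY1 medians were lowest with no SMC3, at 252, 346 and 257 bp, and highest with 6, at 511, 608 and 417 bp.

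SMC3-free regions were also found in fewer YY1 libraries. A YY1 peak was present in all 3 libraries in 541 of the 2445 (22.1%), beside 46.8% of all 7406 regions, 48.2% of those with SMC3 in 1 to 5 libraries and 89.9% of those with SMC3 in 6. Of the rest, 1833 had YY1 peaks in replicates 1 and 2, 12 in 1 and 3, and 59 in 2 and 3. The third YY1 library, the one with the fewest peaks, had a peak in 612 SMC3-free regions. Merged SMC3-free regions spanned 152 to 1755 bp with a median of 376 bp, beside 469 bp with SMC3 in 1 to 5 libraries and 626 bp with 6. A longer region can meet an SMC3 peak more easily. With SMC3 counted only within 150 bp of the YY1 summit, 2484 regions were SMC3-free and the difference in YY1 length was -122.5 bp. This changed few regions, and the part of region length in the difference was not tested.

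When the 7406 regions were ordered by the percentile of their YY1 peak length, averaged over libraries, and split into 5 bins of equal size, 62.5% of the bin with the shortest peaks were SMC3-free. The share was 42.8%, 29.8% and 19.9% in the next bins and 9.99% in the longest, which still held 148 SMC3-free regions. SMC3 in all 6 libraries ran the other way, from 1.55% of the shortest bin to 44.6% of the longest.

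**Figure D2:**
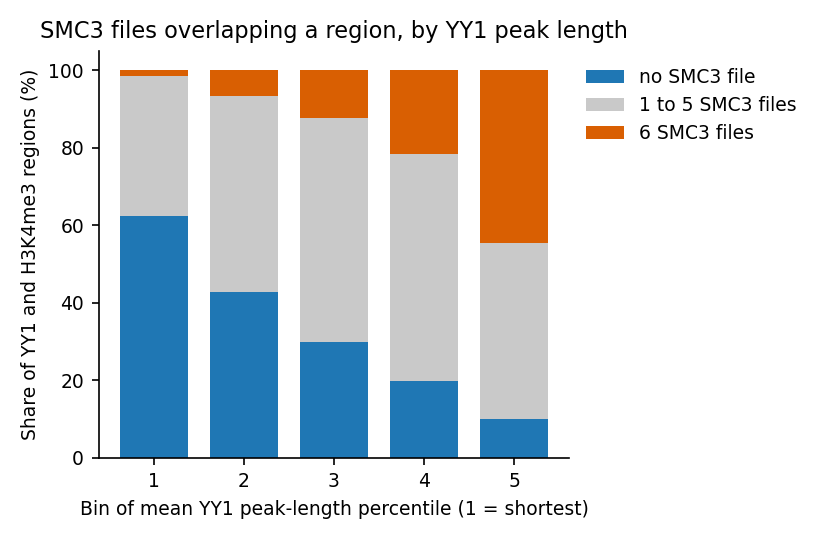
Share (%) of YY1 and H3K4me3 regions with no SMC3, with SMC3 in 1 to 5 and with SMC3 in 6 libraries, in 5 bins of mean YY1 peak-length percentile from shortest (1) to longest (5). The SMC3-free share falls from 62.5% to 9.99% while the share with 6 SMC3 libraries grows from 1.55% to 44.6%.

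Among SMC3-free regions at gene starts, those with the longest YY1 peaks lay at genes with varied roles. They were named by their length, so their lengths are a description. At Hcfc1, which encodes a chromatin-bound transcriptional coregulator (chrX:73966118-73967872), the YY1 peaks were 1680, 1742 and 1526 bp long in replicates 1, 2 and 3. The H3K4me3 peaks there were 1816, 888 and 1701 bp long, so the YY1 peak was the shorter one in replicates 1 and 3 and the longer one in replicate 2. At Fbxl19, which encodes a CpG-island-binding protein (chr7:127745317-127746422), they were 1032, 1099 and 1050 bp. At Crat, the gene of carnitine acetyltransferase (chr2:30415369-30416641), they were 1034, 1273 and 843 bp. In all 3 loci each library's YY1 peak was longer than the SMC3-free median of that library by more than 500 bp. The nearest SMC3 peak of any library lay 50935 bp from the Hcfc1 region, 23483 bp from Fbxl19 and 22987 bp from Crat.

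Pcif1 (chr2:164878718-164880174) had YY1 peaks of 1343, 1457 and 734 bp and Dnajc7 (chr11:100618995-100619961) of 761, 967 and 943 bp. Pcif1 was thus long in the first 2 libraries and shorter in the third, and Dnajc7 was even across them. Several regions lay within 1000 bp of the starts of neighbouring genes. One lay at Slc39a9 and Erh, a small conserved nuclear protein gene (YY1 peaks of 698, 1106 and 792 bp). Another lay at Slc39a7 and Rxrb, a retinoid X receptor gene (716, 848 and 701 bp). A further one lay at Tmem129, a ubiquitin ligase gene of the endoplasmic reticulum, and Tacc3, a mitotic spindle gene (1031, 972 and 777 bp), with SMC3 only 4933 bp away. The remaining genes among the 15 were Pnisr, Zfp335, Nelfa (a subunit of the negative elongation factor), Pcbp1 (a poly(C)-binding protein), Atf4 (a transcription factor of the integrated stress response), Mpdu1 (needed to use dolichol-linked sugars) and Cradd. Their YY1 peaks ranged from 535 bp at Atf4 in replicate 3 to 1253 bp at Atf4 in replicate 2.

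Away from gene starts, the longest was at chr4:141545739-141547118, between protein-coding genes, with YY1 peaks of 1380, 1278 and 1199 bp and H3K4me3 peaks of 2092, 2055 and 2040 bp. Its nearest SMC3 peak lay 5419 bp away. Regions inside Ywhaz, a 14-3-3 protein gene (chr15:36793557-36794489), and inside Mnt, a Max-binding repressor gene (chr11:74837742-74838681), followed. The Ywhaz region had YY1 peaks of 609 and 933 bp in replicates 1 and 2 and none in replicate 3. The Mnt region had 935, 940 and 487 bp. The last 2 lay between genes, at chr11:75172959-75173736 and chr17:34952201-34952937, each with YY1 in replicates 1 and 2.

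At the edge of the choice, the SMC3-free regions with the closest SMC3 peaks were at Nfat5 (a gap of 80 bp), Kdm5c (109 bp), Cdc42ep3 (119 bp), Get4 (124 bp) and Ggnbp2 (163 bp). Just outside it, regions at Fam104a, Dusp28, Pip4p2, Prmt3 and Parp1 shared 34, 67, 68, 92 and 96 bp with an SMC3 peak of 1 control library and none of the others. Only 1 SMC3-free region had an SMC3 peak within 100 bp, and 6 regions were kept out by an overlap under 100 bp in 1 library. Most lay far from the edge: the median gap to the nearest SMC3 peak of any library was 44799 bp, and 2036 regions (83.3%) were over 10000 bp away. How many regions lacked SMC3 depended on the SMC3 list: 48.0%, 46.3% and 74.3% of the 7406 had no peak in control replicates 1, 2 and 3, and 68.1%, 61.9% and 63.3% in shYY1 replicates 1, 2 and 3. Of the 1073 regions with SMC3 in exactly 1 library, 365 and 442 had it in control replicates 1 and 2, which had the most peaks, and 31 in control replicate 3.

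SMC3 beside the SMC3-free regions was compared between arms. The choice barred overlap and not nearness, but the same 6 lists of both arms made it. Nearness was thus counted only among regions that no list overlapped. Nothing about the effect of the shRNA follows from the comparison. A peak within 1000 bp was found at 79, 85 and 29 regions in control replicates 1, 2 and 3 (3.23%, 3.48% and 1.19%) and at 50, 50 and 51 regions in shYY1 replicates (2.04%, 2.04% and 2.09%). The shYY1 libraries fell between the control libraries, so the groups overlapped. The mean was 2.63% ± 1.26 in control and 2.06% ± 0.0236 in shYY1 cells (SD, n = 3). The difference of -0.573 percentage points was smaller than the spread of the controls (exact two-sided permutation test, p = 0.4, smallest possible 0.1). Without control replicate 3 it was -1.30 points (exact permutation p = 0.1), and with equal numbers of the longest peaks from each list it was 0.136 points (exact permutation p = 0.6), in the other direction.

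H3K4me3 peaks were shorter at SMC3-free regions than at regions with SMC3, by less than the YY1 peaks were. The medians were 1023, 895 and 925 bp in replicates 1, 2 and 3, beside 1118, 974 and 1010 bp. Each library gave a lower value at SMC3-free regions. The difference was -86.3 ± 8.08 bp (SD, n = 3, exact two-sided sign-flip permutation p = 0.25, the smallest possible). This difference did not hold within bins of YY1 length. SMC3-free regions had the longer H3K4me3 peaks by 93.2, 48.5, 4.83 and 3.67 bp in bins 1 to 4 and the shorter ones, by -44 bp, only in the longest. The part of YY1 length in the pooled difference was not tested. Nearly all SMC3-free regions, 2379, lay in an H3K4me3 region found in 3 libraries. They occupied 2414 of 16653 H3K4me3 regions, and in 73 cases the same H3K4me3 region also held a YY1 region with SMC3.

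By position, 1805 SMC3-free regions (73.8%) lay within 1000 bp of the start of a protein-coding gene, 329 (13.5%) elsewhere inside a gene and 311 (12.7%) between genes. Of regions with any SMC3, 78.1% lay at a gene start, 10.9% inside a gene and 10.9% between genes. The difference at gene starts was -4.33 percentage points, and it too changed sign within bins of YY1 length, with 7.31, 2.67, 0.49, -1.61 and 1.19 points from the shortest to the longest. Starts on both strands lay within 1000 bp of 7.12% of SMC3-free regions, 9.55% of those with SMC3 in 1 to 5 libraries and 9.97% of those with 6. An end of a long noncoding RNA gene lay within 1000 bp of 289 SMC3-free regions (11.8%). The share was 13.7% with SMC3 in 1 to 5 libraries and 16.2% with SMC3 in 6.

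The YY1 summit, the point of highest signal in a peak, sat closer to the gene start where no SMC3 was called. In replicates 1, 2 and 3 the median summit of SMC3-free regions lay at -16.5, -3 and 5 bp relative to the start, with negative values upstream. In regions with any SMC3 it lay at -55, -45 and -53.5 bp. These were at -43, -31.5 and -31 bp with SMC3 in 1 to 5 libraries and at -98, -86 and -92 bp with SMC3 in 6. The values of the 3 libraries did not overlap between regions with no SMC3, SMC3 in 1 to 5 and SMC3 in 6, and no test was run. The spread among regions was wide: in replicate 1 the middle of the SMC3-free summits ran from -90 to 60.75 bp (quartiles), and that of regions with 6 SMC3 libraries from -178 to 3.5 bp.

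**Figure D3:**
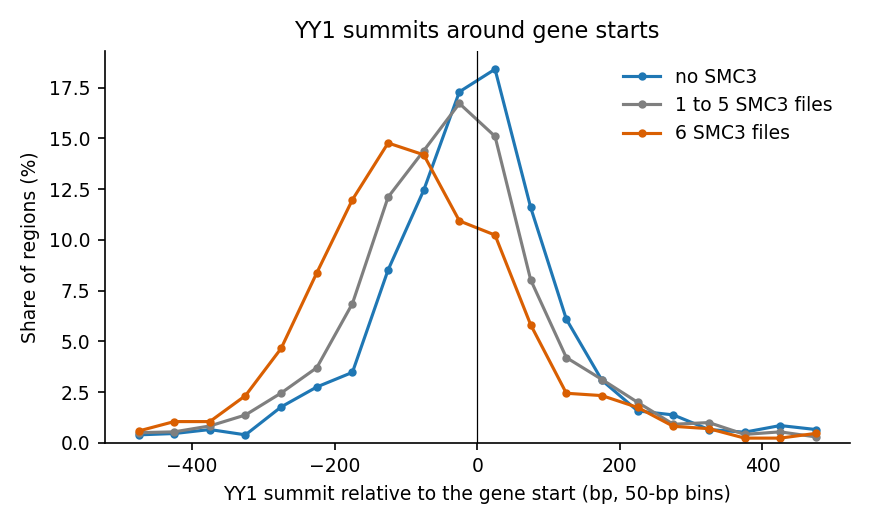
Share of regions (%) by the position of the YY1 summit relative to the gene start, in 50-bp bins, for regions with no SMC3, SMC3 in 1 to 5 and SMC3 in 6 libraries. The SMC3-free curve peaks at the start and the curve for 6 libraries peaks upstream of it.

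SMC3-free regions, despite their shorter YY1 peaks, held the YY1 core motif at their gene start about 2 times as often as regions with SMC3. Windows of 300 bases, from 250 before to 50 after the start, were available for 1388 SMC3-free regions and 3136 regions with SMC3, with 1 window per region. The core AANATGGC was in 282 SMC3-free windows (20.3%, Wilson 95% interval 18.3 to 22.5) and in 326 windows with SMC3 (10.4%, 9.38 to 11.5). Of all 21262 gene-start windows, 6.37% held it. The difference of 9.92 points had an interval of 7.55 to 12.3 points, which covers counting error only, since windows are not replicates. A longer form, AAGATGGCG, which contains the core, was in 8.50% of SMC3-free windows, 3.86% of windows with SMC3 and 1.83% of all windows. A match describes letters and does not show that YY1 touched them.

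The share stepped down between 0 and 1 SMC3 library and then stayed level. It was 20.3% with none and 10.3%, 9.63%, 11.9%, 9.24%, 9.80% and 11% with 1 to 6. YY1 peak length and the core therefore ordered the regions differently. Length was graded over all 7 classes, while the core share was highest in SMC3-free windows and lay at 9.24% to 11.9% in the other 6. Windows are not replicates, and no test was run on this step. By YY1 library, the core share in SMC3-free regions exceeded that in regions with SMC3 by 9.95, 9.98 and 18.4 points in replicates 1, 2 and 3. These values are not replicates, since the motif is fixed in the DNA and the libraries largely share their windows. Replicates 1, 2 and 3 had 1364, 1384 and 372 SMC3-free windows. By SMC3 library, windows without a peak exceeded those with one by 6.61, 6.15 and 2.57 points in control and 4.87, 5.67 and 5.28 points in shYY1 replicates 1, 2 and 3. Control replicate 3, which called the fewest SMC3 peaks, gave the smallest difference.

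Within bins of YY1 length the core share grew with length in both classes and was higher without SMC3 in each bin. From the shortest to the longest it was 11.5%, 19.6%, 21.5%, 28.2% and 41.4% in SMC3-free windows and 3.94%, 5.51%, 8.18%, 11.3% and 15.4% in windows with SMC3. In the longest bin, 46 of 111 SMC3-free windows held the core. SMC3-free regions with the core also had longer YY1 peaks than those without it, with medians of 301, 442 and 313 bp against 260, 348.5 and 253 bp in replicates 1, 2 and 3, and 40.8% against 20.7% had YY1 in all 3 libraries.

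**Figure D4:**
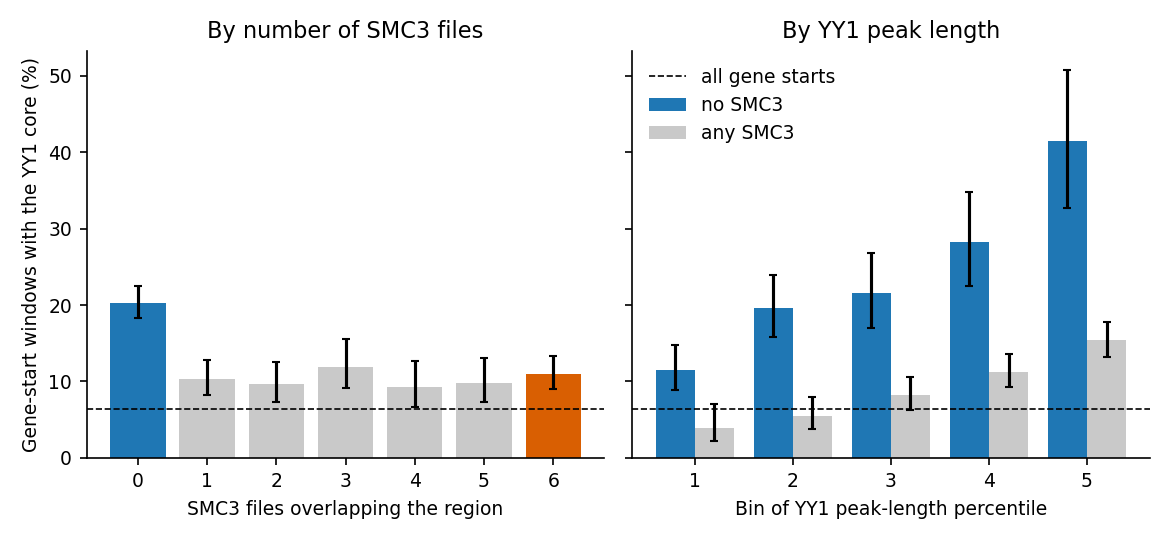
Share (%) of 300-base gene-start windows with the YY1 core, by number of SMC3 libraries overlapping the region (left) and by bin of YY1 peak length (right). Bars have Wilson 95% intervals, which cover counting error only. The dashed line is the share over all gene starts, 6.37%. The SMC3-free bar, at 20.3%, stands above the bars for 1 to 6 libraries, and the SMC3-free bar is the taller one in each bin.

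YY1 regions found in only 1 YY1 library, which the choice did not use, gave the same order. Of 2642 such regions with H3K4me3, 2289 (86.6%) lacked SMC3. The core was in 76 of 810 windows without SMC3 (9.38%) and in 2 of 134 windows with it (1.49%). The SMC3 calls in these regions come from the same 6 lists, so only the regions are new.

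Base content moved with the classes as well. The median GC content of the window was 60.7% in SMC3-free regions, 63.7% with any SMC3, 65.0% with SMC3 in 6 libraries and 56.3% over all windows. Within 5 bins of GC content the core share stayed higher without SMC3, by 15.7, 6.94, 4.92, 9.32 and 6.12 points from the lowest to the highest GC. The GC-rich SP motif (GGGGCGGGG) was in 22.0% of SMC3-free windows, 28.4% of those with SMC3 and 34.6% of those with 6 SMC3 libraries, beside 15.4% of all windows. Within GC bins its differences were -0.46, -0.87, -2.76, -3.94 and -0.02 points, smaller than the pooled difference of -6.33.

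Most other motifs differed little. The ETS motif CCGGAAGT, bound by a family with many members in blood cells, was in 12.2% of SMC3-free windows, 9.53% with SMC3 and 5.15% of all windows. Dnajc7 and Slc39a9, shown above, carry these letters in the bases shown, and Daxx, with SMC3, carries them on the opposite strand. The NFY box CCAAT was in 41.1% and 46.3% (38.2% of all). The intervals of the differences included 0 for the CTCF core AGGGGGCGC (1.95% and 2.2%, 1.70% of all), NRF1 GCGCATGCG (4.11% and 5.23%, 2.35% of all), the CRE TGACGTCA (4.39% and 4.15%, 2.23% of all), the E-box CACGTG (12.4% and 11.7%, 7.84% of all) and TATAAA (6.20% and 4.85%, 12.6% of all). These intervals cover counting error only, since windows are not replicates. The short CTCF letters stand for part of a longer motif, and nothing about CTCF binding follows from them.

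Within SMC3-free windows the 319 copies of the core lay at a median of 9 bp after the start, 54.5% of them in the first 50 bases of the transcript, and 68.3% read on the gene's strand. With SMC3 the 352 copies lay at a median of 0 bp, with 50.3% in the first 50 bases and 60.5% on the gene's strand, and over all windows the shares were 41.9% and 58.8%. The core stood nearer to the YY1 summit without SMC3, at a median of 63 bp against 92.5 bp, and within 50 bp in 45.0% against 30.7% of windows with a core. This distance was not split by YY1 peak length. The part of the shorter peaks and of the summit position in it was not tested. Counting only copies wholly upstream of the start, 8.79% of SMC3-free windows and 5.01% of windows with SMC3 held the core, a difference of 3.78 points (95% interval 2.11 to 5.46). Counting only copies on the strand opposite to the gene, the shares were 6.84% and 4.18%, a difference of 2.67 points (1.17 to 4.17). Both differences had the direction of the pooled one and were smaller in points.

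Among genes, 6372 had a YY1 and H3K4me3 region at their start, and in 1906 of them every such region was SMC3-free (29.9%). Lists of genes are described by this share. Neighbouring genes that share a region are both counted, and no list was tested.

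Of the 26 lists, aminoacyl-tRNA synthetases and mitochondrial ribosomal proteins had the highest SMC3-free shares. Of 29 aminoacyl-tRNA synthetase genes with YY1 and H3K4me3, 16 were SMC3-free (55.2%), among them the mitochondrial enzymes Iars2 and Yars2. At Yars2 the YY1 peaks were 315, 686 and 602 bp long in replicates 1, 2 and 3. Iars2 had peaks of 478 and 520 bp in replicates 1 and 2 and none in replicate 3. Of 57 mitochondrial ribosomal protein genes, 29 were SMC3-free (50.9%). Mrpl52 had YY1 peaks of 474 and 749 bp in replicates 1 and 2, Mrps7 of 734, 782 and 376 bp and Mrpl2 of 380, 838 and 551 bp in replicates 1, 2 and 3. Mrps7 shares its region with Gga3, a Golgi sorting adaptor gene, and Mrpl2 with Klc4, a kinesin light chain gene. The YY1 core was in 13 of 27 SMC3-free mitochondrial ribosomal genes with a window (48.1%) and in 4 of 24 of those with SMC3 (16.7%), beside 20.5% and 11.6% over all genes. The gap was not particular to this list. It was as wide in DNA replication genes (3 of 8 and 1 of 18). Vesicle coats and tethers (3 of 8 and 1 of 16) and autophagy and lysosome genes (3 of 8 and 1 of 15) came close. It was narrower for synthetases (3 of 11 and 2 of 11) and oxidative phosphorylation subunits (6 of 19 and 7 of 28). These counts are small. The core share was higher with SMC3 in the proteasome, Mediator, cohesin, glycolysis and antioxidant lists. DNA repair, INO80 and immediate early genes with a window had no core in either class.

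Oxidative phosphorylation subunits were SMC3-free in 24 of 57 (42.1%). Examples were Ndufa13 of complex I (YY1 peaks of 525, 560 and 350 bp) and Ndufs1, also of complex I, whose region is also that of Eef1b2, a translation elongation factor gene (313, 671 and 487 bp). Timm8b, a mitochondrial import chaperone gene, shares a region with Sdhd of complex II (399, 564 and 240 bp). Mitochondrial import and assembly factors, in contrast, were SMC3-free in 6 of 26 (23.1%). The high share was thus not common to all mitochondrial lists, although with YY1 and H3K4me3 required in 3 of 3 libraries this list stood at 3 of 10, above the 15.1% of all genes.

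Cytoplasmic ribosomal protein genes were SMC3-free in 25 of 67 (37.3%), with Rps18, Rpl12 and Rpl18 having the longest YY1 peaks. Rps18 had 519, 661 and 392 bp. RNA polymerase and general transcription factor genes reached 15 of 36 (41.7%), among them Cdk7, the kinase of TFIIH (447, 393 and 308 bp), nucleoporins 9 of 22 (40.9%), splicing factors 20 of 53 (37.7%) and proteasome subunits 13 of 36 (36.1%). Psmb5, whose sequence is shown above, had YY1 peaks of 523, 712 and 354 bp, and Nup88 of 556, 590 and 502 bp. KRAB zinc finger genes and their cofactor reached 17 of 39 (43.6%), among them Zfp184, Zfp212 and Zfp110, with a low median YY1 length percentile of 48.8 beside 58.9 over all genes. Mitosis and centromere genes stood at 14 of 37 (37.8%), as high as the splicing factors. Other lists lay nearer to the 29.9% of all genes. These included autophagy and lysosome genes (10 of 28, 35.7%) and Mediator subunits (7 of 20, 35%). Vesicle coats and tethers (10 of 29, 34.5%) and cilium genes (7 of 23, 30.4%) were among them too. With YY1 and H3K4me3 required in 3 of 3 libraries, autophagy and lysosome genes stood at 0 of 9, below the all-gene share of 15.1%, and RNA polymerase and general transcription factor genes were close to it, at 2 of 13 (15.4%).

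Immediate early, DNA repair, Polycomb and haematopoietic regulator genes stood lowest. Of 19 immediate early and AP-1 genes with YY1 and H3K4me3, 2 were SMC3-free (10.5%): Fos, an AP-1 subunit (YY1 peaks of 474, 749 and 388 bp), and Btg2, an antiproliferative gene (327 and 308 bp in replicates 1 and 2, none in 3). SMC3 was called in all 6 libraries at 8 of the 19, beside 1220 of all 6372 genes. DNA repair genes were SMC3-free in 6 of 44 (13.6%), among them Chek1, the checkpoint kinase gene, Fanci and Xpa. Polycomb genes reached 3 of 19 (2 of 12, just above all genes, with 3 of 3 libraries required) and glycolysis genes 3 of 15, the latter including Ldha, which encodes lactate dehydrogenase.

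Of 18 haematopoietic stem and progenitor regulators, 3 were SMC3-free (16.7%). They included Bmi1 (188, 270 and 310 bp), a Polycomb subunit needed for stem cell self-renewal, and Ldb1 (147 and 291 bp in replicates 1 and 2), the bridging partner of LMO2. The YY1 peaks of Bmi1 and Ldb1 were short, with length percentiles of 31.3 and 19.9. Of the 15 haematopoietic marker genes, only 6 had YY1 and H3K4me3 at the start and so could be SMC3-free. These 6 (Tal1, Lyl1, Meis1, Kit, Cd34 and Zfpm1) each carried SMC3 in at least 1 library. That is 0 of 6 beside 29.9% of all genes, too few genes to set them apart from that share.

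Some lists with similar YY1 lengths had different SMC3-free shares. The part of YY1 length in the shares of the 26 lists was not tested. The median length percentile was 58.4 for aminoacyl-tRNA synthetases, 58.3 for mitochondrial ribosomal proteins, 60.6 for DNA repair and 60.7 for immediate early genes, all near the 58.9 of all genes, although their SMC3-free shares ran from 10.5% to 55.2%. Cohesin genes and their regulators were SMC3-free in 4 of 12: Esco1, Mau2, Cdca5 and Ctcf. Here Mau2, part of the cohesin loader, had YY1 peaks of 435, 419 and 310 bp. The remaining lists were translation factors (11 of 39), DNA replication (8 of 31), chaperones (9 of 34), antioxidant defence (4 of 15) and INO80 with YY1 (3 of 12). They lay at 25% to 28.2%, close to the 29.9% of all genes. With 3 of 3 libraries required, translation factors (4 of 24) and chaperones (4 of 23) lay above them, as did INO80 with YY1 (4 of 12) without control SMC3 replicate 3.

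**Figure D5:**
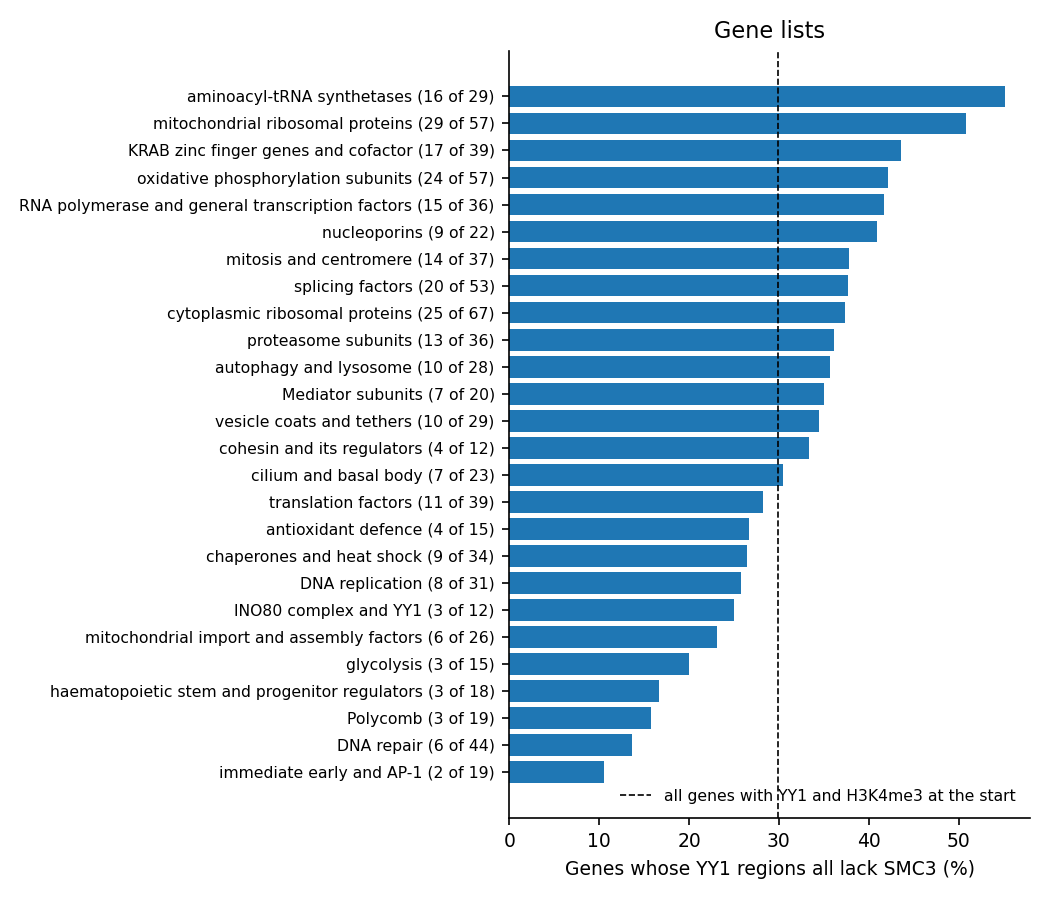
Share (%) of the genes of each list with YY1 and H3K4me3 at the start whose regions there were all SMC3-free, with the counts in the labels; the dashed line is the share over all 6372 genes, 29.9%. Aminoacyl-tRNA synthetase and mitochondrial ribosomal protein genes lie highest, at 55.2% and 50.9%, and immediate early genes lowest, at 10.5%.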

How the data were processed

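The deposited lists hold the chromosome, start, end, name and summit offset of each peak and no other value, per the file headers. Starts were read as counted from 0, and coordinates are printed counted from 1 for mm10. Per the submitters' processing notes, the authors used cutadapt 4.5, Bowtie2 2.5.1, Picard 3.1.1 and MACS2 2.2.9.1. Settings, the threshold for calling a peak and any use of IgG were not given in the sources used here. The lists of 12 of 15 libraries were analysed.

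From these positions, regions were merged and chosen as described in the report, on chromosomes 1 to 19, X and Y, with Python 3.11.15, numpy 2.4.6 and pandas 2.3.3. A library's peak length at a region is that of its longest peak there. Gene starts came from RefSeq tables of GRCm38.p6: start sites for 17491 of 21883 protein-coding genes, and both ends of the gene for the other 4392. Libraries, not regions or genes, were the replicates. Differences between regions within a library were tested with an exact sign-flip permutation, and the arms with an exact permutation test over 20 assignments. The code was tested on simulated data.

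Named were the 15 SMC3-free regions at gene starts with YY1 in 3 libraries and the highest YY1 length percentile, up to 3 such genes per list, the 5 highest away from gene starts, and 5 regions on each side of the rule's edge. Sequences were those of named genes with the core. The regions, the 26 gene lists and the comparisons were chosen with earlier results of these data known. Alternatives covered the libraries required, the SMC3 lists used, the overlap, the windows, peak length, GC content, the place and strand of the motif, and leaving out each library. Some named genes are not reported here.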

Additional observations from a re-analysis of the deposited data

How the results depend on the processing

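The number of SMC3-free regions was 534 of 3431 when YY1 and H3K4me3 had to be called in 3 of 3 libraries. It was 3688 of 7406 when only shYY1 SMC3 lists counted. Leaving out each library gave 550 to 2887, with the lowest values, 599 of 3548 and 550 of 3478, without YY1 replicate 1 or 2. The shorter YY1 peaks kept their direction under all 16 alternatives (-227 to -97 bp). The H3K4me3 length difference reversed in 4 of 5 YY1-length bins (93.2, 48.5, 4.83 and 3.67 bp). The gene-start difference was -7.80 points against regions with SMC3 in 6 libraries, and by YY1-length bin it was 7.31, 2.67, 0.49, -1.61 and 1.19 points.

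The YY1 core difference stayed above 0 under each alternative run. It was 19.9 points with 3 of 3 libraries, 4.64 for the longer motif, 14.0, 13.3, 16.9 and 26.1 in YY1-length bins 2 to 5, and 15.7, 6.94, 4.92 and 6.12 in GC bins 1, 2, 3 and 5. It was 3.78 for copies upstream of the start and 2.67 for copies on the opposite strand. Leaving out each library gave 8.29 to 20.3 points, with 18.9 and 20.3 without YY1 replicates 1 and 2. Added after seeing the data were the upstream and opposite-strand counts, the GC bins, the H3K4me3 values by YY1-length bin, the summit alternative, the motif with 3 of 3 libraries, with control SMC3 lists alone and in 1-library regions, the leave-one-out values of the motif and of gene starts, gene starts from the promoter table alone, and the 4 gene-list settings. The cause of these shifts was not tested.

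The share with SMC3 nearby reversed to 0.136 points with equal numbers of the longest peaks. With the replicate block it was -0.573 points (exact permutation p = 0.5); the labels do not say that the numbers pair the libraries. Synthetase, mitochondrial ribosomal and oxidative phosphorylation genes stayed above the all-gene share, and DNA repair, haematopoietic regulator and immediate early genes below it, in each of 4 settings. With 3 of 3 libraries required, the latter stood at 1 of 25, 1 of 9 and 1 of 14, beside 15.1% of all genes. These counts are too small for their direction to carry weight. Depth is unknown, so a missing SMC3 peak may be one too weak to be called.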
